A study of Mus musculus with 5 samples.

Results

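The proteasome subunit genes are the mouse genes that encode the parts of the proteasome, its activators, its inhibitor and the chaperones that help to assemble it. They were taken by symbol, as Psm followed by a letter a to g and a number, and the inducible subunits Psmb8 and Psmb9 were left out by the rule. The rule found 43 of the 19221 genes in the table. They comprise 7 alpha and 7 constitutive beta subunits of the 20S core, the inducible beta subunit Psmb10, 5 ATPases and 11 other subunits of the 19S cap, 7 assembly chaperones, 4 activators and 1 inhibitor. A further ATPase of the cap, Psmc6, was not found under its symbol, so statements on the ATPases cover Psmc1 to Psmc5.

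The RNA came from male C57BL/6 mice, 9 weeks old, whose caudate putamen was sampled. A small ischaemic stroke was made there by photothrombosis: rose bengal, a dye that makes clots form where it is lit, was injected at a dose of 100 mg/kg, and a laser of 532 nm set to 30 mW lit the tissue for 2 min through a fibre 3 mm below the dura. Lesioned tissue was taken 4 hours, 1 day, 3 days and 10 days later, and that of 6 animals was pooled into 1 library per time. The sham library came from the left, contralateral caudate putamen, which had been lit through its own fibre before any dye was given. Sham tissue therefore carried a fibre track, and it came from the side opposite a stroke. The number of animals behind the sham library and the time at which its tissue was taken are not stated. Because each group is 1 library, no difference below has a replicate check, no test between conditions was made, and each value describes these libraries.

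The proteasome is the large protease that degrades most short-lived and damaged proteins of the cell after they have been tagged with ubiquitin. Its core is a barrel of alpha and beta rings, with the cutting sites on beta subunits, and the 19S cap at its end binds the tagged protein, unfolds it with a ring of ATPases and feeds it into the barrel. In immune cells and under interferon gamma, Psmb8, Psmb9 and Psmb10 replace the constitutive cutting subunits, and the activator made by Psme1 and Psme2 can take the place of the cap; this form favours peptides for MHC class I.

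The promoters of 5 members are shown because these genes carry the separate time courses described below: Psme1 and Psme2 stand for the inducible genes, Psmc1 and Psmd2 for the cap, and Psma3 for the alpha ring. Each runs 5′ to 3′ over the 250 bases before and 50 after the RefSeq transcription start, on build GRCm38.p6. Psme1 lies at chr14:55578244-55578543 on the plus strand, Psme2 at chr14:55591052-55591351 on the minus strand, Psmc1 at chr12:100109952-100110251, Psmd2 at chr16:20651402-20651701 and Psma3 at chr12:70974373-70974672, these last on the plus strand. Capitals mark matches to an interferon-stimulated response element core, a CCAAT box or an ETS core on either strand.
Psme1: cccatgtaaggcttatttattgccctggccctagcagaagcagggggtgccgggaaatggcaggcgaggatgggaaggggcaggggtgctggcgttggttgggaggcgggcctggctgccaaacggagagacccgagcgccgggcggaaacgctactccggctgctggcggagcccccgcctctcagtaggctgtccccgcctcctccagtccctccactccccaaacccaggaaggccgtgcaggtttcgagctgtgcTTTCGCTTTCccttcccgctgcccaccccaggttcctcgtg
Psme2: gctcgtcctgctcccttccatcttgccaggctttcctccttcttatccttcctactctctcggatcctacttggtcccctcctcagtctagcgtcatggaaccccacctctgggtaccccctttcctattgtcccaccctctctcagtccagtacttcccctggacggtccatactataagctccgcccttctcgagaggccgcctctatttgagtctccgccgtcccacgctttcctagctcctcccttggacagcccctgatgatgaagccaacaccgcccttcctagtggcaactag
Psmc1: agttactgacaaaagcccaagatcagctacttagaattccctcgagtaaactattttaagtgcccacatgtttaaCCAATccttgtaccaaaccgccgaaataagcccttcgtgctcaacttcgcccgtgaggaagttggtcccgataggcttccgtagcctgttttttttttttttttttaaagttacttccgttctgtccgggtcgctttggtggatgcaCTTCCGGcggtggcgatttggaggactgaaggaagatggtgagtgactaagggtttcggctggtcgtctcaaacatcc
Psmd2: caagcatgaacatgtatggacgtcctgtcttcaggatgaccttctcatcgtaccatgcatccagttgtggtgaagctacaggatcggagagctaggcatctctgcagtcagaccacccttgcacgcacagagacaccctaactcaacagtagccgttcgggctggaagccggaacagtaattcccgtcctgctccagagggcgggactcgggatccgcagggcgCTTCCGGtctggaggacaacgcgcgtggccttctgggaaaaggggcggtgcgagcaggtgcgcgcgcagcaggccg
Psma3: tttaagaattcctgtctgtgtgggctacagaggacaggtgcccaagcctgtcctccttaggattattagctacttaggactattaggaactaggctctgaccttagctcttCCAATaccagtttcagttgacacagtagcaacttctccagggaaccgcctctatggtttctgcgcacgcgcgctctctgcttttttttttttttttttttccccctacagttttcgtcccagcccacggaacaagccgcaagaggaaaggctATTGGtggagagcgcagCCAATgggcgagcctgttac

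Of the 43 members, 36 matched an entry of the RefSeq promoter table, with 39 promoters. The ETS core, CCGGAAG, was in 35.9% of the members' promoters and in 8.86% of all 32851 promoters of the same length. It was in 8 of 13 matched 19S genes, among them Psmc1 and Psmd2, in 1 of 11 matched 20S alpha and constitutive beta genes (Psma6, at its other start site), and in 4 of 12 other members. The interferon-stimulated response element core, GAAA, any 2 bases and GAAA, was in 12.8% of the members' promoters and 3.44% of all promoters. Its 5 genes were Psme1, Psmb3, Psmd4, Psmd9 and Psmg4, and in Psme1 the match began 9 bases after the RefSeq start. The RefSeq start lay downstream of the annotated 5′ end of the gene by 371 bases in Psme1 and 58777 in Psmd9. That of the Psma6 site with the ETS core lay 14603 bases downstream, so these windows lie inside the annotated genes. No such letters stood in the windows of Psme2 or Psmb10. The antioxidant response element core, TGACNNNGC, was in 12.8% of the members' promoters, in Psmb5, Psmb6, Psmd12, Psmd9 and Psme4, against 12.4% of all promoters. The CCAAT box was in 30.8% against 37.4%, and the gamma-activated site core, TTCNNNGAA, in 5.13% against 8.3%. Both strands were searched, a stretch could match more than 1 motif, and a match is a description of letters, not a site. The members' promoters had a median GC content of 57.3%, against 52.7% over all promoters, so the share of GC-rich motifs is read beside that difference.

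Values are RPKM, read counts divided by gene length and by the total of the library, as deposited. Folds are log2((stroke RPKM + 1) / (sham RPKM + 1)), which understates low genes. A gene counted as higher where its log2 fold reached 0.5, that is 1.41-fold, and as lower where it reached -0.5; a second limit was 1, that is 2-fold. Genes at 1 RPKM or more in at least 1 library were analysed, which kept 12783 genes and 42 members. Psme4, which encodes a large nuclear activator of the core, did not pass, at 0.522, 0.327, 0.452 and 0.383 RPKM at 4 hours, day 1, day 3 and day 10, against 0.343 RPKM in sham. Ratios are given with exact conditional binomial intervals at 95% that cover counting error only. They were available for 40 members whose reads came out whole; Psma7, Psmb5 and Psmg2 have none.

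The libraries held 42261786 to 48013846 reads. Median-of-ratios scaling, which sets the typical gene of each library to the same level, would divide out log2 factors of 0.41, -0.05, 0.16 and 0.14 in the 4 stroke libraries in order of time, relative to sham, so values after this scaling stand beside those as deposited. Marker genes of cell types moved with the times. The summed RPKM of 11 microglia and macrophage markers was 288, 445, 2796 and 3344 at the stroke times in order, against 380 in sham. That of 9 markers of medium spiny neurons, the projection neurons of the striatum, was 2319, 901, 1380 and 1543 in the same order, against 1806 in sham. All 9 were above 2 RPKM in every library, so the labelled tissue was borne out by its defining markers. In tissue RNA, fewer cells of a type and less RNA per cell cannot be told apart.

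Levels of the members spanned a wide range, and their order was led by the beta ring. In sham the highest was Psmb5, which carries the chymotrypsin-like cutting site, at 102 RPKM, followed by Psmb4 at 71.0 and Psmb1 at 60.1 RPKM. Psmb5 was also the highest at 4 hours (112 RPKM), day 1 (114), day 3 (147) and day 10 (109). Psmb1 and Psmb4 took the next places in all 5 libraries, in an order that changed between them, and Psme4 was last in each library. The geometric mean of the 7 beta genes was 62.4, 70.8, 77.0 and 55.9 RPKM at the stroke times, against 49.3 RPKM in sham, and that of the 7 alpha genes was 18.0, 19.8, 14.7 and 11.97 RPKM, against 11.5 RPKM in sham. The 16 genes of the 19S cap had 16.4, 11.6, 12.5 and 10.4 RPKM, against 10.2 RPKM in sham. Subunits of 1 particle were thus not at 1 RPKM in any library. RPKM divides by a gene's length, and most values came out as whole reads with the length of all its exons. That length exceeded the longest protein coding transcript unevenly: 4595 against 1970 bases in Psmb1, and 899 against 899 in Psmb5. For Psmb5, whose reads were not whole, the length used is uncertain. Order and gaps between genes of a library therefore depend on the length used, and equal RNA levels were not tested.

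**Figure D1:**
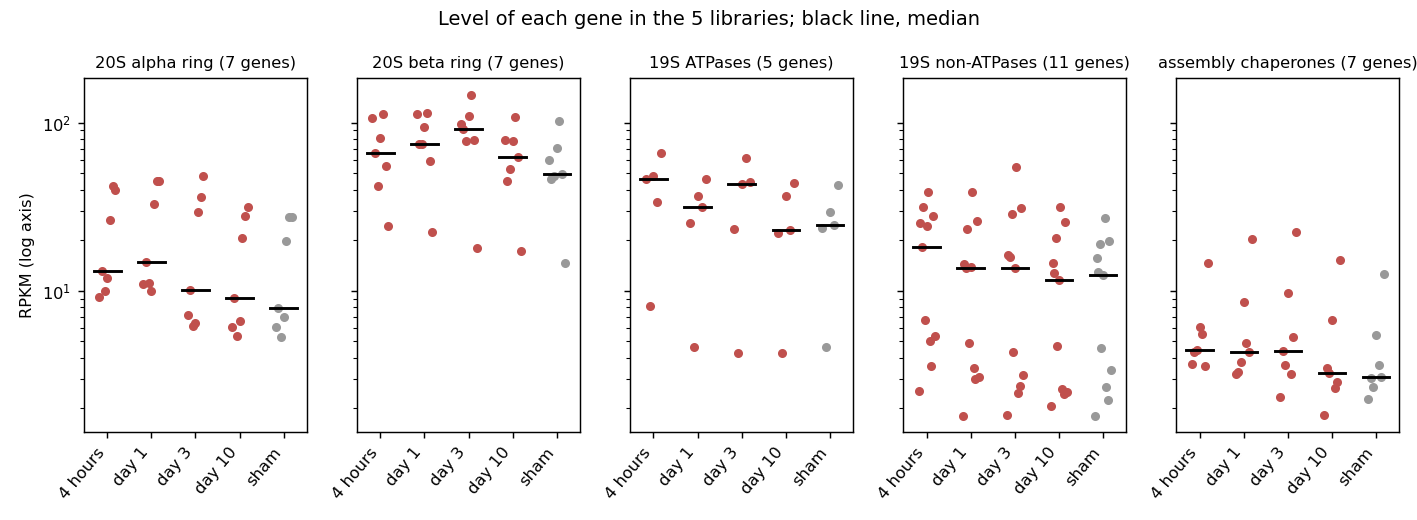
RPKM (log axis) of the genes of 5 proteasome parts in the 4 stroke libraries and sham; each point is 1 gene in 1 library and the black line is the median over genes. The median of the beta ring is the highest of the 5 parts in every library, and its leading gene is Psmb5, at 147 RPKM at day 3, against 102 RPKM in sham.

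As a whole, the members' RNA was higher than sham at 4 hours, day 1 and day 3 and close to it at day 10. The median log2 fold of the 42 members was 0.51 after 4 hours, 0.37 after both 1 and 3 days and 0.08 after 10 days, beside medians of 0.28, -0.02, 0.12 and 0.07 over all genes analysed. Folds moved with gene length in these libraries, and the members' exon length was 2724 bases at the median. Protein coding genes were split by exon length into 3 equal groups, the short with a median of 1928 bases and the middle with 3917. The members' median lay inside the short group, which reached up to 2911 bases. The short genes had medians of 0.30, 0.21, 0.37 and 0.11, and the middle genes 0.36, -0.03, 0.10 and 0.06. The members' median was above both groups at 4 hours and day 1, and at day 3 it was above the middle genes and equal to 2 decimals to the short ones. After median-of-ratios scaling the members' medians were 0.16, 0.41, 0.23 and -0.04, those of the short genes -0.02, 0.25, 0.24 and 0.00, and those of the middle genes 0.05, 0.00, -0.01 and -0.04. The sign at day 10 turned with the scaling.

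These medians hide parts with separate time courses. As deposited, most of the cap and of the alpha ring were higher at 4 hours, the alpha ring at day 1, the beta ring at days 1 and 3, and Psmb10, Psme1 and Psme2 at days 1, 3 and 10. By the library in which a gene was highest as deposited, 20 of 42 members peaked at 4 hours, among them 13 of 16 genes of the cap, 6 at day 1, of which 5 belong to the alpha ring, 15 at day 3 and 1, Psmb10, at day 10. None was highest in sham, and 22 were lowest there. The same counts over all genes are not given here. As deposited, 9981 of the 12783 genes analysed were above sham at 4 hours, and 6176 were after scaling. Being above sham at 4 hours as deposited is therefore not particular to the members. Without the peak counts of all genes, those of the members describe the members alone, as deposited and after scaling. After scaling, the highest library was 4 hours for 11 members, day 1 for 16, day 3 for 14 and day 10 for 1, and the alpha genes with a peak at day 1 became all 7.

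**Figure D2:**
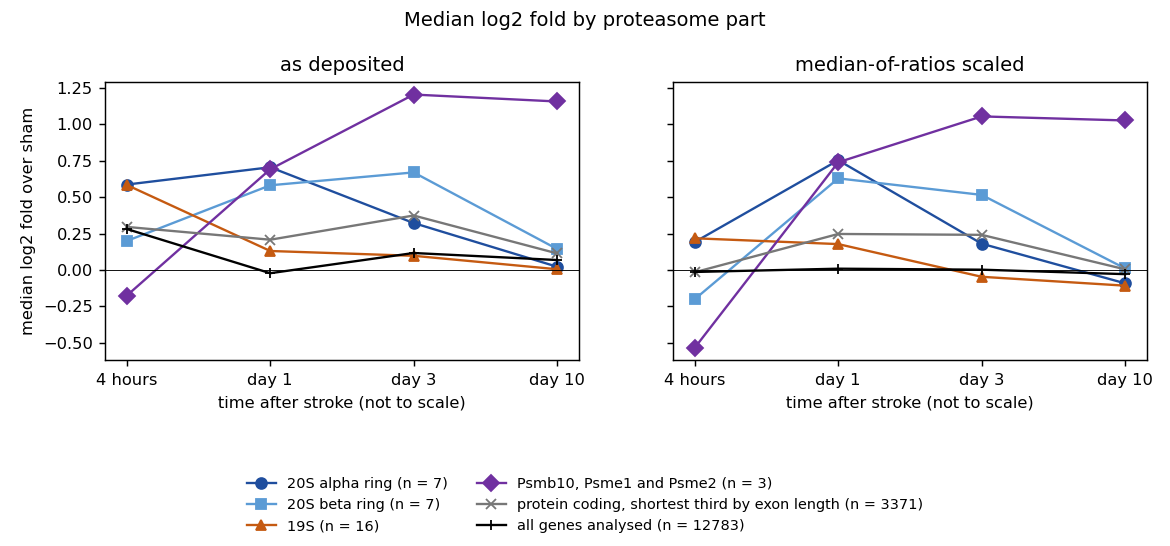
Median log2 fold over sham (y axis) at 4 hours, day 1, day 3 and day 10 (x axis, not to scale) for the parts of the proteasome and for 2 sets of all genes, as deposited (left) and after median-of-ratios scaling (right). The 19S cap is at 0.58 at 4 hours and 0.13 at day 1, the alpha ring at 0.59 and 0.71, and the inducible genes reach 1.20 at day 3.

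At 4 hours, 24 of 42 members were higher than sham by at least 0.5 (25.7% of all genes) and 0 were lower (4.08% of all genes). None reached 1 (2.2% of all genes were that much higher). The cap held 10 of the 24, with a median log2 fold of 0.58, and 6 were alpha genes. Only 2 kept 0.5 after scaling (5.09% of all genes), Psmc1 at 0.55 and Psmd7 at 0.54, and 3 were then lower by that size (9.63% of all genes), Psmb3 at -0.58, Psmb10 at -0.80 and Psme2 at -0.53. Marker lists of other cells moved in this library too. The 4 choroid plexus markers analysed summed to 737, 305, 20.3 and 2.82 RPKM at the stroke times in order, against 78.5 RPKM in sham, and nearly all of it was Ttr, at 729 RPKM at 4 hours, against 77.4 RPKM in sham. Markers of medium spiny neurons were at 2319 RPKM at 4 hours, against 1806 RPKM in sham, and those of oligodendrocytes at 1481 RPKM, against 890.3 RPKM in sham. Of the medium spiny neuron markers, Penk was at 836 RPKM, against 432 RPKM in sham, while Ppp1r1b was at 1004 RPKM, against 1019 RPKM in sham. The median log2 fold of the medium spiny neuron markers was 0.37 as deposited and 0.01 after scaling. That of 7 general neuron markers was 0.565 and 0.175, and that of the oligodendrocyte markers 0.81 and 0.41. The part of these lists in the members' values was not tested.

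Psmc1, an ATPase of the cap, was at 46.4 RPKM at 4 hours, 25.2 on day 1, 23.3 on day 3 and 22.2 on day 10, against 23.6 RPKM in sham. Its ratio to sham was 1.97 at 4 hours, with a counting interval of 1.83 to 2.13, and between 0.942 and 1.07 at the other times. Psmc1 was thus high in 1 library and near sham in the rest. Psmd7, a scaffold partner of the deubiquitinase subunit Psmd14, had the same shape, at 24.4, 13.8, 13.7 and 11.7 RPKM, against 12.3 RPKM in sham, with a ratio of 1.97 at 4 hours (1.79 to 2.17). Psme3, which forms a nuclear activator of its own, was at 20.1, 13.2, 11.9 and 11.4 RPKM, against 11.4 RPKM in sham. Its ratio at 4 hours was 1.76 (1.61 to 1.93), and its log2 fold was 0.77 as deposited and 0.38 with scaling. Psmf1, which encodes an inhibitor of the core, was at 3.36, 2.07, 2.80 and 2.12 RPKM, against 1.97 RPKM in sham, and it too was highest at 4 hours.

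The other ATPases at 4 hours were Psmc2 and Psmc3 (both 0.70), Psmc5 (0.62) and Psmc4 (0.44), on the log2 scale as deposited. Psmc2 was at 8.12, 4.65, 4.26 and 4.29 RPKM, against 4.63 RPKM in sham. Among non-ATPases, 6 of 11 were higher by 0.5 as deposited (25.7% of all genes) and 1 of 11 after scaling (5.09% of all genes), and the range as deposited was 0.33 (Psmd1, one of the large scaffold subunits) to 0.93 (Psmd7). The ubiquitin receptor Psmd4 was at 0.70 and the large scaffold subunit Psmd2 at 0.67. Psmd11, a scaffold subunit, was at 5.01, 3.47, 2.47 and 2.62 RPKM, against 2.68 RPKM in sham. The median of the non-ATPases at 4 hours was 0.51 as deposited and 0.20 after scaling. Psmd8 and Psmd13 had their peak at day 3, and after scaling Psmd3 and Psmd4 did too.

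The beta ring was split at 4 hours. Psmb1 (0.81), Psmb7 (0.68) and Psmb2 (0.51) were higher by size, and Psmb4 (0.20), Psmb6 (0.17), Psmb5 (0.13) and Psmb3 (-0.18) were not. Psmb3 was at 42.2, 74.4, 77.6 and 53.2 RPKM, against 48.0 RPKM in sham, with a ratio of 0.879 at 4 hours (0.830 to 0.932) and of 1.55 at day 1 (1.47 to 1.63). As deposited it was the 1 constitutive core gene below sham at 4 hours. After scaling Psmb3 (-0.58), Psmb5 (-0.27), Psmb6 (-0.23) and Psmb4 (-0.20) were below sham there, and Psmb1 (0.41), Psmb7 (0.29) and Psmb2 (0.11) above it by less than 0.5.

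At day 1, 16 of 42 members were higher than sham by at least 0.5 (14% of all genes), 0 were lower (11.7% of all genes) and 0 reached 1 (3.33% of all genes). After scaling 17 were higher (15.7% of all genes). Of the 3371 short protein coding genes, 896 were higher at day 1 as deposited and 996 after scaling. Of the 3369 middle genes, 302 and 346 were. Of the 16, 10 were alpha or constitutive beta genes of the core, 3 were Psmb10, Psme1 and Psme2, 2 were the chaperones Psmg1 and Psmg4, and 1, Psmd8, belonged to the cap. The core genes had a median log2 fold of 0.69 and the cap genes of 0.13. Neutrophil markers were at a summed 152 RPKM in this library, against 11.1 RPKM in sham, and the markers of medium spiny neurons at 901 RPKM, against 1806 RPKM in sham; their part in the result was not tested.

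The alpha ring was highest here, with 6 of 7 genes at 0.5 or more and a range of 0.46 (Psma4) to 0.94 (Psma3). Psma3 was at 9.99 RPKM at 4 hours, 11.1 on day 1, 6.17 on day 3 and 5.40 on day 10, against 5.30 RPKM in sham. Its ratio was 2.09 at day 1 (1.87 to 2.34) and 1.17 at day 3 (1.02 to 1.32). Psma3 was thus high at 4 hours and day 1 as deposited, while after scaling its log2 fold was 0.44 at 4 hours and 0.99 at day 1. Psma2 and Psma1 had log2 folds of 0.82 and 0.76. Psma4 was at 11.9, 10.0, 6.47 and 6.64 RPKM, against 7.01 RPKM in sham, and it peaked at 4 hours as deposited and at day 1 after scaling. Psma7 was the alpha gene with the highest fold at day 3, at 39.6, 45.2, 48.1 and 31.4 RPKM, against 27.6 RPKM in sham. Of the beta ring, Psmb1 had the highest fold at day 1, at 106, 112, 97.8 and 79.1 RPKM, against 60.1 RPKM in sham. It was above sham in all 4 stroke libraries, with ratios between 1.31 and 1.86.

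Ratios between genes within 1 library do not depend on how libraries are scaled. The geometric mean of the 14 core genes over that of the 16 cap genes was 2.05 at 4 hours, 3.22 on day 1, 2.70 on day 3 and 2.48 on day 10, against 2.33 in sham. The core-to-cap ratio was thus below sham at 4 hours and above it at day 1. The beta-to-alpha ratio was 3.46, 3.57, 5.23 and 4.67, against 4.28 in sham, so it lay below sham at 4 hours and day 1 and above it at days 3 and 10. These ratios can still move with gene length, with which folds moved in these libraries. Median exon length was 2335 bases in the core and 2814 in the cap, and 1951 in the beta ring and 2952 in the alpha ring. The part of length in these ratios was not tested.

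**Figure D3:**
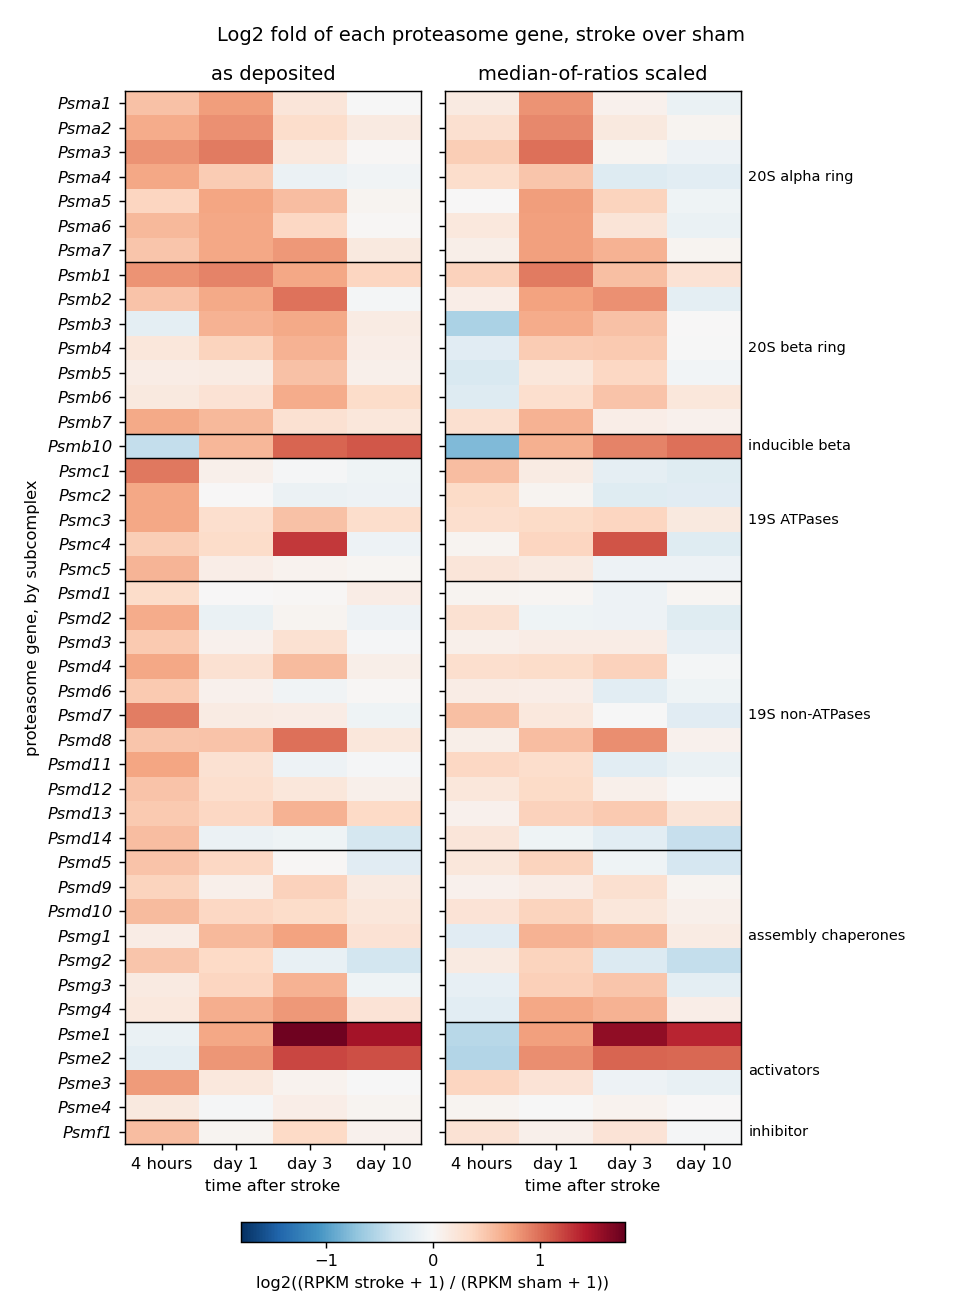
Log2 fold over sham, colour scale, of all 43 members (rows, by part of the proteasome) at 4 stroke times (columns), as deposited (left) and after median-of-ratios scaling (right); Psme4 is below the level filter. Psmc1 and Psmd7 stand out at 4 hours (0.95 and 0.93 as deposited), Psma3 at day 1 (0.94) and Psmc4 and Psme1 at day 3 (1.28 and 1.74).

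At day 3, 19 of 42 members were higher than sham by at least 0.5 (26.2% of all genes), 0 were lower (7.66% of all genes), and 4 reached 1 (9.04% of all genes): Psme1, Psmc4, Psme2 and Psmb10. After scaling 12 were higher (20.1% of all genes) and 3 reached 1 (7.1% of all genes), and Psmb10 was then at 0.90. Of the 3371 short protein coding genes, 1360 were higher by 0.5 at day 3 as deposited, and 528 reached 1. After scaling 1049 of these short genes were higher by 0.5. Of the 3369 middle genes, 752 were higher by 0.5 as deposited and 235 reached 1, and 556 were higher by 0.5 after scaling. The beta ring gave 6 of the 19, with a median log2 fold of 0.67 (0.52 scaled), the alpha ring 2 and the cap 5. The library at this time held the dividing cell markers at a summed 26.0 RPKM, against 0.929 RPKM in sham, and the microglia and macrophage markers at 2796 RPKM, against 380 RPKM in sham; their part in the result was not tested.

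Psmc4, an ATPase of the cap, stood apart from the other ATPases at day 3. It was at 34.0 RPKM at 4 hours, 31.5 on day 1, 61.6 on day 3 and 23.2 on day 10, against 24.8 RPKM in sham. Its ratio at day 3 was 2.48 (2.32 to 2.66), on 5630 reads against 2409 reads in sham, while Psmc3 was at 1.46 (1.37 to 1.56) and Psmc1, Psmc2 and Psmc5 were between 0.919 and 1.04. Set against Psmc5 in the same library, Psmc4 was at 0.514, 0.680, 1.38 and 0.527, against 0.580 in sham. The day 3 library was thus the one in which Psmc4 exceeded Psmc5 in RPKM.

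Psmd8, a cap subunit, was at 38.7, 39.0, 54.9 and 31.4 RPKM, against 27.1 RPKM in sham, with a ratio of 2.03 at day 3 (1.92 to 2.15). Psmb2, a constitutive beta subunit without a cutting site, was at 66.3, 74.5, 92.0 and 45.0 RPKM, against 46.1 RPKM in sham, with a ratio of 1.99 at day 3 (1.86 to 2.14). Both were highest at day 3, and Psmb2 was back at sham by day 10 with a ratio of 0.975 (0.901 to 1.05). Psmb7, the constitutive subunit that Psmb10 replaces, had the lowest day 3 fold of the beta ring, at 24.2, 22.5, 18.0 and 17.2 RPKM, against 14.7 RPKM in sham. The other cutting subunits, Psmb5 and Psmb6, were at log2 folds of 0.52 and 0.67 at day 3.

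The assembly chaperones had medians of 0.40, 0.37, 0.42 and 0.16, and their time courses were mixed. At day 3 the core chaperones Psmg4, Psmg1 and Psmg3 were at log2 folds of 0.78, 0.72 and 0.63, and at 4 hours at 0.19, 0.14 and 0.16. The cap chaperones Psmd5, Psmd9 and Psmd10 were at 0.52, 0.40 and 0.57 at 4 hours, and at 0.03, 0.42 and 0.32 at day 3. The fourth core chaperone, Psmg2, the partner of Psmg1, was at log2 folds of 0.50 at 4 hours and -0.13 at day 3, and at 5.53, 4.91, 3.22 and 2.66 RPKM, against 3.62 RPKM in sham. Psmg4 was at 14.6, 20.4, 22.4 and 15.2 RPKM, against 12.7 RPKM in sham, with a ratio of 1.77 at day 3 (1.45 to 2.17) on 526 reads.

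At day 10, 3 of 42 members were higher than sham by at least 0.5 (13.1% of all genes), 0 were lower (1.12% of all genes), and the same 3 reached 1 (4.2% of all genes): Psme1, Psme2 and Psmb10. Without them the other 39 members ranged between -0.34 (Psmg2) and 0.39 (Psmb1), with a median of 0.05. After scaling the 3 were at 1.37, 1.03 and 0.99.

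Psmb10 was at 13.1 RPKM at 4 hours, 27.6 on day 1, 38.1 on day 3 and 40.2 on day 10, against 17.9 RPKM in sham. Its ratio to sham was 0.729 at 4 hours (0.649 to 0.819), 1.54 at day 1 (1.40 to 1.69), 2.13 at day 3 (1.94 to 2.33) and 2.24 at day 10 (2.05 to 2.45). It was below sham in the first library and above it in the other 3. Set against Psmb7, the subunit it replaces, Psmb10 was at 0.541, 1.22, 2.12 and 2.34, against 1.22 in sham.

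Psme1, which encodes the alpha chain of the inducible activator, was at 14.2, 25.7, 54.4 and 45.8 RPKM, against 15.5 RPKM in sham. Its ratio was 0.914 at 4 hours (0.824 to 1.01), 1.66 at day 1 (1.51 to 1.81), 3.50 at day 3 (3.23 to 3.80) and 2.95 at day 10 (2.72 to 3.20). No other member had a larger fold at day 3 or day 10. Psme2, its partner chain, was at 8.72, 18.0, 24.3 and 23.5 RPKM, against 9.98 RPKM in sham, with a ratio of 2.44 at day 3 (2.16 to 2.75) and of 2.35 at day 10 (2.09 to 2.65). The transcript of Psme2 matches that of Psme2b at 99.4% over 794 bases, so reads may be split between them, and Psme2b was at 6.21, 19.1, 28.3 and 29.5 RPKM, against 10.6 RPKM in sham. Set against Psme3, Psme1 was at 0.707, 1.95, 4.57 and 4.03, against 1.36 in sham, and Psme2 at 0.434, 1.37, 2.04 and 2.07, against 0.876 in sham. Both ratios were thus below sham at 4 hours and above it at day 3. Which of 2 genes was higher within a library depends on the length used. Psme1 had 2209 exon bases for a transcript of 1112, and Psme3 had 2949 for a transcript of 2664.

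**Figure D4:**
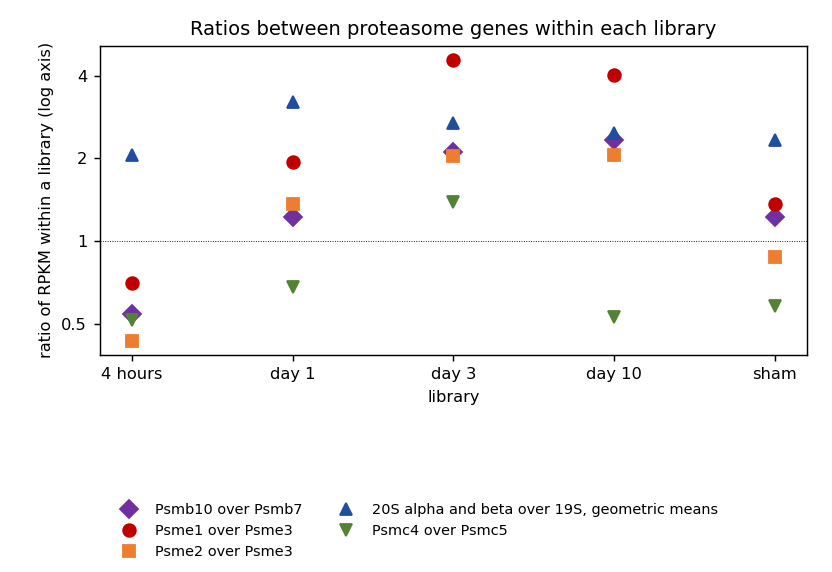
RPKM ratios between proteasome genes within each library (log axis) at 4 hours, day 1, day 3, day 10 and in sham. Psme1 over Psme3 is at 0.707 at 4 hours and 4.57 at day 3, against 1.36 in sham, and Psmc4 over Psmc5 exceeds 1 at day 3, at 1.38.

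The inducible genes that the rule left out were also lowest at 4 hours and, like Psmb10, highest at day 10. Psmb8 was at 0.819, 3.85, 18.0 and 21.3 RPKM, against 3.81 RPKM in sham, and Psmb9 at 0.149, 0.796, 4.33 and 5.62 RPKM, against 0.846 RPKM in sham. Both were far below the subunits they replace: Psmb8 over Psmb5 was 0.0073, 0.0338, 0.122 and 0.196, against 0.0372 in sham. The 11 interferon response genes analysed had median log2 folds of -0.96, -0.22, 0.49 and 0.98, and a summed 11.8, 50.8, 305 and 250.5 RPKM, against 54.0 RPKM in sham. Irf1, a transcription factor of interferon signalling that is also in that list, was at log2 folds of -0.81, 0.44, 0.34 and 0.81. The microglia and macrophage markers had medians of -0.30, -0.13, 2.71 and 2.91. These lists had their lowest medians at 4 hours and their highest at days 3 and 10, as Psmb10, Psme1 and Psme2 had their values. At day 1 both list medians were below sham, at -0.22 and -0.13, and the log2 folds of Psmb10, Psme1 and Psme2 were 0.59, 0.69 and 0.79. The microglia and macrophage list was split there. Of its 11 genes, 3 were higher by 0.5 (14% of all genes) and 3 lower (11.7% of all genes). Its summed RPKM at day 1 was 445, against 380 in sham. The part of these lists in the result was not tested.

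**Figure D5:**
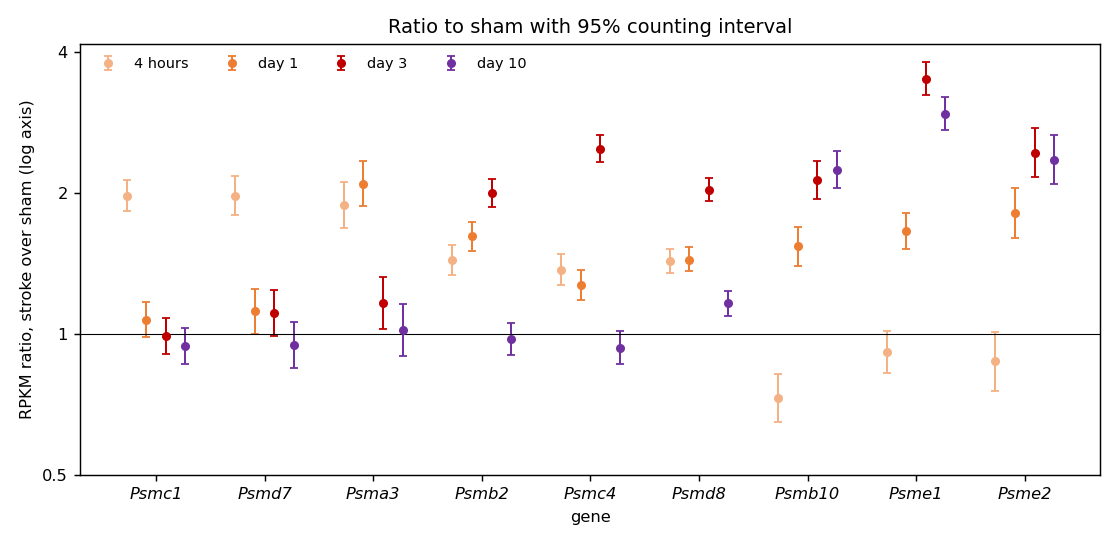
Ratio of RPKM to sham (log axis) of 9 members at 4 hours, day 1, day 3 and day 10, with bars for the 95% counting interval, which covers counting error only. Psmc1 and Psmd7 are near 2 at 4 hours alone, at 1.97 each, while Psme1 reaches 3.50 at day 3 and Psmb10 2.24 at day 10.

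Between stroke libraries, the members' median log2 fold was -0.10 for day 1 over 4 hours, 0.05 for day 3 over day 1 and -0.24 for day 10 over day 3. The first 2 changed sign with scaling, to 0.33 and -0.12, and the last was -0.22. Day 1 over 4 hours had 4 members higher by 0.5 (8.93% of all genes), Psmb10 at 1.02, Psme2 at 0.97, Psme1 at 0.81 and Psmb3 at 0.80, and 8 lower (32.4% of all genes), 6 of them genes of the cap. The same step had 17 higher (18.7% of all genes) and 0 lower (9.8% of all genes) after scaling. For the 16 genes of the cap the median of that step was -0.41 as deposited and -0.01 after scaling. Day 3 over day 1 had 2 higher (20.8% of all genes), Psme1 at 1.05 and Psmc4 at 0.95, and 4 lower (5.59% of all genes), Psma1, Psma2, Psma3 and Psma4. Day 10 over day 3 had 0 higher (6.09% of all genes) and 8 lower (13% of all genes), with Psmc4 at -1.37 and Psmb2 at -1.02.

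Of 39 other genes of the ubiquitin-proteasome pathway listed, 37 were in the table and 32 were analysed. Of them 15 were higher by 0.5 at 4 hours (25.7% of all genes), 6 at day 1 (14%), 6 at day 3 (26.2%) and 2 at day 10 (13.1%). Lower by that size were 2 (4.08% of all genes), 1 (11.7%), 2 (7.66%) and 0 (1.12%). After scaling 1 was higher (5.09% of all genes) and 3 were lower (9.63%) at 4 hours. Their median log2 fold was 0.49, 0.06, 0.09 and 0.04. At 4 hours the list's median was thus close to that of the members, at 0.51, and at day 1 it was lower, at 0.06 beside 0.37. The list was described in these libraries and not tested.

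Pomp, which helps the core to mature, was at 16.7, 15.1, 12.4 and 10.6 RPKM, against 9.94 RPKM in sham. Nfe2l1, the transcription factor known to drive proteasome genes when the proteasome is impaired, was at 35.7, 21.2, 15.8 and 24.5 RPKM, against 25.1 RPKM in sham; its log2 fold was 0.49 at 4 hours and -0.64 at day 3. The RNA of Nfe2l1 was thus lowest in the day 3 library, and its part in the members' values was not tested. Rps27a, a ubiquitin and ribosomal protein fusion gene, was at 155, 290.2, 205 and 140 RPKM, against 129 RPKM in sham, and was the listed gene beyond 1 on the high side, at 1.16 at day 1. Ubqln2, a shuttle that carries tagged proteins to the proteasome, was at 16.4, 4.69, 5.60 and 9.33 RPKM, against 11.02 RPKM in sham, and was the one beyond 1 on the low side, at -1.08 at day 1. The ubiquitin gene Ubb was at 3547, 2775, 4056 and 2915 RPKM, against 2749 RPKM in sham. The cap's ubiquitin receptor Adrm1 had log2 folds between 0.05 and 0.43, and the small cap subunit Sem1 between 0.03 and 0.58.

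Some members share sequence or exons with other genes, which limits what their values count. Transcripts of 11 members hold a stretch of at least 300 bases that is at least 95% identical to another gene in the table: Psma3, Psma4, Psma5, Psmb3, Psmb5, Psmc1, Psmd1, Psmd2, Psmd11, Psmd13 and Psme2. The strand setting of the counting is not stated in the sources. Exons of Psmd9 overlap those of Gm26745 on the opposite strand over 25.5% of their length, those of Psmb7 overlap Nek6 over 11.8% and those of Psmd13 overlap Sirt3 over 10.1%. Exons of Psmb5, the member with the highest RPKM, overlap the miRNA gene Mir686 on the same strand over 12.1%. Mir686 was listed at 145 to 218 RPKM, so reads there cannot be assigned to 1 of them. Exons of Psmg3 overlap the protein coding gene Gm26938 on the same strand over 9.68%. Gm26938 was at 4.31 to 7.12 RPKM, so reads there cannot be assigned to 1 of them either. Gm26745 was at 0.143 RPKM or less in each library. Nek6 was at 4.19 to 7.32 RPKM and Sirt3 at 5.89 to 7.44 RPKM, so reads of these genes and of Psmb7 and Psmd13 cannot be told apart there. Psmc4 and Psmb10 had no such stretch and no exon overlap with another gene.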

How the data were processed

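Total RNA of 5 pooled tissue samples was sequenced, 1 library per group, so no samples were averaged. Per the submitters' processing notes, the tools were HISAT2 2.1.0, StringTie 1.3.4d and Trimmomatic 0.36 and the build GRCm38; their roles are not stated. Per the file headers, the authors deposited RPKM per gene and library and, for each pair of libraries, a log2 fold and GFOLD at the setting 0.01, a log2 fold shrunk towards 0 at low counts. The annotation and the strand setting are not given in the sources used here. RPKM divides by all reads, so abundant transcripts move all other values.

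Identifiers were matched to GENCODE mouse release 21 (99.78% of 19221, all 43 members). Of the values below 5000 reads, 90.39% to 90.54% came within 0.02 of a whole read when RPKM was multiplied by union exon length. Even numbers made up 55.3% to 57.3% of values of 1 to 20 reads, so intervals use reads divided by 2. PCR copies are not independent molecules, so intervals cover counting error only.

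The pseudocount was 1 and the filter 1 RPKM in at least 1 library. Alternatives were median-of-ratios and trimmed-mean-of-M-values scaling, rescaling without 3412 mitochondrial, predicted and small RNA genes, a pseudocount of 0.1, no filter, a filter of 5 RPKM, a size limit of 1 and the deposited GFOLD. Members in full are those with a log2 fold of at least 1 at any time, the highest and lowest of each part at day 3, and those below the filter; of the pathway list, those beyond 1 and Nfe2l1, Pomp, Adrm1, Sem1 and Ubb; another gene that the rule names is not reported here. Psma3, Psmb1, Psmb3, Psmc1, Psmd7 and Psme2b were added after their values were seen. Members and lists were chosen with earlier results of these data known. Promoters came from RefSeq, and near-identical stretches from BLAST 2.17.0 on GENCODE transcripts. The calculation was tested on simulated data. Work was done in Python 3.11.15, NumPy 2.4.6, pandas 2.3.3 and SciPy 1.17.1.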

Additional observations from a re-analysis of the deposited data

Results flagged for a closer look

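Psmb10 was lower than sham at 4 hours and higher at the 3 later times, with counting intervals that do not hold 1 in any of the 4 ratios. Its log2 fold against sham was higher at day 1 than at 4 hours by 1.02, at day 3 than at 4 hours by 1.47 and at day 10 than at 4 hours by 1.55. The difference was not tested, since each time is 1 library, and the 4 ratios share the sham library.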

How the results depend on the processing

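Scaling mattered most at 4 hours. With median-of-ratios scaling the members' median log2 fold there was 0.16, the number higher by size 2 and the number lower 3; with trimmed-mean-of-M-values scaling these were 0.18, 2 and 3, against 0.51, 24 and 0 as deposited. At day 3 the number higher was 12 with either scaling and 9 after rescaling without mitochondrial, predicted and small RNA genes, against 19. The day 3 median was 0.20 after that rescaling and 0.53 with the filter of 5 RPKM, against 0.37. Both scalings turned the median of day 1 over 4 hours (0.33 and 0.32, against -0.10) and of day 3 over day 1 (-0.12 and -0.10, against 0.05). A size limit of 1 left 0 members higher at 4 hours, 0 at day 1 and 4 at day 3. The cause was not tested. At day 10 the number higher was 3 under every alternative run, and under no filter, the pseudocount of 0.1 and the deposited GFOLD the members' counts stayed within 1.5 times. Of 64 values of the 16 named genes with a counting interval, 30 moved by more than the counting error with median-of-ratios scaling and 34 did not; with the pseudocount of 0.1 none of them did. No paired analysis was possible because each group is 1 library. No replicate could be left out for the same reason. Depth limits Psme4 most, at 127 to 201 reads.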
